A study of Mus musculus with 2 samples.

Results

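The interleukin 1 (IL-1) family and the inflammasome are described here through 10 genes, chosen by name: the cytokine genes Il1b, Il1a and Il18, the antagonists Il1rn and Il18bp, the receptor subunit gene Il1rap, the protease genes Casp1 and Casp4, the adaptor gene Pycard and the sensor gene Nlrp3. They were taken from the 12393 genes that have a probe set with 1 gene symbol on the Affymetrix mouse expression array used, and they are covered by 15 of 20380 such probe sets. RAW 264.7 cells, a macrophage-like tumour line of mouse, received IFN-gamma at 1000 U/ml together with adenosine at 300 uM, or IFN-gamma at 1000 U/ml alone, for 4 h. Before hybridization, RNA of 2 separate experiments was combined for each treatment, so each treatment is 1 array, and no untreated cells were analysed here. No difference below therefore has a replicate check or a test.

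IL-1 beta and IL-18 are made as inactive precursors. An inflammasome is a cytosolic complex in which a sensor such as NLRP3 recruits caspase-1 through the adaptor ASC, the product of Pycard, and active caspase-1 cuts both precursors. In macrophages Il1b and Nlrp3 are transcribed mainly after a priming signal such as a Toll-like receptor ligand, while the receptor antagonist, the product of Il1rn, and the IL-18 binding protein, the product of Il18bp, limit the action of the released cytokines.

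The adenosine array was dimmer as a whole, with a median deposited signal of 15.2 over 22626 gene probe sets, against 45.9 on the IFN-gamma array. Its signals were therefore multiplied by 2.82, which removes a median log2 ratio of -1.495, and all signals below are on that scale unless called deposited. The spiked-in hybridization controls (18 probe sets) differed less between the arrays, by a median deposited log2 ratio of -0.53 ± 0.19 (SD over probe sets), so the size of the shift removed depends on what is held equal. Signals under 44.0, the median of all scaled gene signals (the 50th percentile, called the floor), were treated as low, by convention. A gene below it on both arrays was not counted as measured, and a fold against a signal below it is written "at least". The only error available for a log2 ratio is how far probe sets of 1 gene differ, an SD of 0.52 over 2375 genes. In 4 groups of these genes by rising signal, this SD was 0.56, 0.57, 0.53 and 0.41. It holds no variation among cultures or arrays. All 11 macrophage markers on the array were above the floor, with summed signals of 49700.5 with adenosine and 37836.9 with IFN-gamma alone. They did not go 1 way: 4 of 11 had a log2 ratio below 0, Lyz2 was at least 2-fold higher (1.05) and Fcgr1 at least 2-fold lower (-1.52). None of 10 markers of granulocytes and mast cells, 9 of T and B cells or 12 of fibroblasts, endothelium and epithelium was above it on either array, and of 6 dendritic cell markers Fscn1 was, at 57.8 with adenosine and 34.7 with IFN-gamma alone.

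The members lay on both sides of the array median. Of the 8 measured, Il1b and, by 1 of 3 disagreeing probe sets, Il1rap were at least 2-fold higher with adenosine, and Il18, Casp1 and Il18bp were at least 2-fold lower. Il1rn, Casp4 and Nlrp3 lay within 2-fold of the array median, and Il1a and Pycard were not measured. Among all 6818 measured genes 4.52% were at least 2-fold higher and 10.1% at least 2-fold lower. The median log2 ratio of the 8 members was -0.73, against -0.08 for all measured genes. In the values as deposited, with no scaling, 6 of 8 members were at least 2-fold lower and 1, Il1b, was at least 2-fold higher, where 5605 of 7117 genes were lower and 10 higher. In RNA of whole cultures, fewer cells expressing a gene and less RNA of it per cell cannot be told apart.

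**Figure D1:**
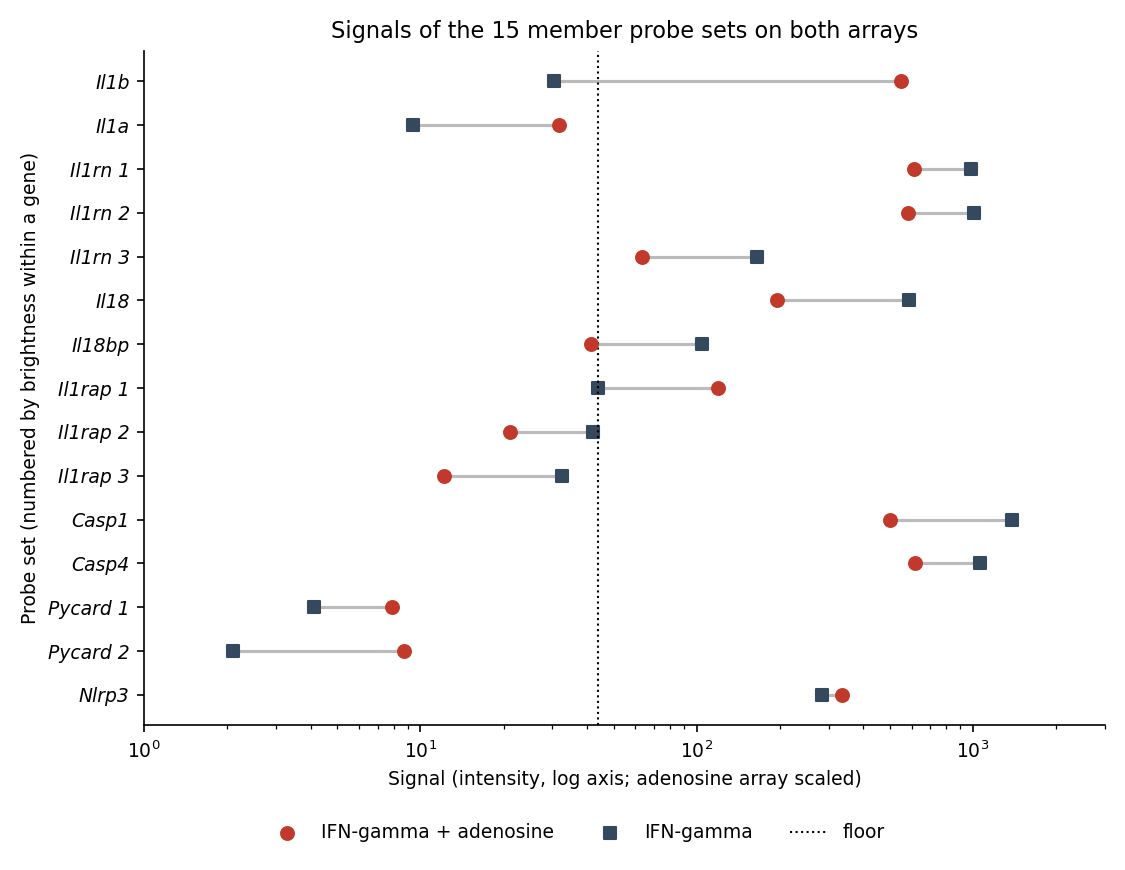
Signals of the 15 member probe sets (intensity on a log axis, adenosine array scaled), with IFN-gamma and adenosine as red circles, IFN-gamma alone as dark squares and the floor of 44.0 as a dotted line; probe sets of a gene are numbered by brightness. Il1b is at 551 with adenosine and under the floor, at 30.4, with IFN-gamma alone, Il18 and Casp1 lie to the left with adenosine, and both Pycard probe sets lie under 10 on either array.

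The start sites of 4 members are shown because they carry the opposed differences: Il1b, the gene with the highest ratio, Il18 and Casp1, which were lower by similar amounts, and Casp4, the neighbour of Casp1 on chromosome 9. Sequences are RefSeq promoter windows of GRCm38.p6, 250 bases before and 50 after the annotated start, 5′ to 3′ on the strand of the gene. Capitals mark matches to any of 7 motifs searched on both strands.
Il1b, chr2:129371090-129371389, minus strand: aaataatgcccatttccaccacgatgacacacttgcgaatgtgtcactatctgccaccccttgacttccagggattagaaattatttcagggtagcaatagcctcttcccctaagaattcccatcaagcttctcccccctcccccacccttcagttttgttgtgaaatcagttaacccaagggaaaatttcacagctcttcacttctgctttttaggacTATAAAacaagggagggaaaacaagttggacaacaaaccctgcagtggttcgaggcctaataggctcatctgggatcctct
Il18, chr9:50554450-50554749, plus strand: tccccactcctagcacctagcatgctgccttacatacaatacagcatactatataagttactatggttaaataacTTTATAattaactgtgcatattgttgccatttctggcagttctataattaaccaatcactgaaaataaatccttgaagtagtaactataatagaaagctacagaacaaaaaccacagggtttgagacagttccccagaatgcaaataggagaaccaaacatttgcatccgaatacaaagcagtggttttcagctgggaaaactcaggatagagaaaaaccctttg
Casp1, chr9:5298267-5298566, plus strand: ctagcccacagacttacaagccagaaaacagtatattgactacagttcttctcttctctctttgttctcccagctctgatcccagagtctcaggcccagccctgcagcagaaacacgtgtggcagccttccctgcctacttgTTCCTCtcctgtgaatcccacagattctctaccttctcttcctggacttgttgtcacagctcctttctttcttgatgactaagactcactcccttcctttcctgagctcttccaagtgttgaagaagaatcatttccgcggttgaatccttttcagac
Casp4, chr9:5308599-5308898, plus strand: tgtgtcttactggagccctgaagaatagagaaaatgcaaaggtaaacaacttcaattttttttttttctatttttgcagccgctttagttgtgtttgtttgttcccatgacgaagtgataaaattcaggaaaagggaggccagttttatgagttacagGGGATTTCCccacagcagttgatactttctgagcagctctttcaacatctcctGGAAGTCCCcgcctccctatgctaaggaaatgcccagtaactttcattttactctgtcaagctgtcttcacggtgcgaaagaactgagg

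The motifs were the cAMP response element TGACGTCA, AP-1 as TGANTCA, NF-kB as GGGNNTTCC, ISRE as GAAANNGAA, C/EBP as TTGCNNAA, an ETS core as GAGGAA and the TATA box as TATAAA. The capitals are a TATA box 31 bases before the start in Il1b, the reverse of one at -175 in Il18, a reverse ETS core at -108 in Casp1, and in Casp4 NF-kB matches at -92 and, in reverse, -39. NF-kB matches were also found in both windows of Nlrp3. Of the 14 windows of the 10 genes, 4 held an NF-kB match (5.8% of all 32851 windows), all in Casp4 and Nlrp3, and the 2 windows of Casp4 overlap. AP-1 was in 2 windows, those of Il1a and of 1 start of Il1rn (7.8% of all), C/EBP in those of Il18bp and Pycard (10.8%) and ISRE in that of Il1rap (8.6%). The ETS core was in 4 (28.3%) and the TATA box in 4 (13.6%). The cAMP response element (1.8%) was in none. The member on the higher side, Il1b, and those on the lower side, Il18 and Casp1, shared no match other than the TATA letters of Il1b and Il18. A match is a match of letters, and none of these windows was assayed for binding.

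Among the cytokines, Il1b stood at the top of the array. Its 1 probe set, 1449399_a_at, read 551 with adenosine (195.5 as deposited) and 30.4 with IFN-gamma alone, which is below the floor. The fold was at least 12.5, a log2 ratio of 3.65, or 7.04 times the probe set SD, and no measured gene had a higher ratio. That SD comes from genes above the floor on both arrays, which Il1b was not. As deposited, both signals exceeded the corresponding floor of 24.5, and Il1b was still 6.43-fold higher on the dimmer array, again the highest of all measured genes. It ranked first under 9 of the 10 alternative settings that measured it, this one included, and ninth with the floor at the 67th percentile, which raises the IFN-gamma signal to 165 and leaves at least 3.34-fold. The difference rests on a single probe set, and its name marks it as one that may also match other transcripts of the gene.

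Il1a, which encodes the other IL-1 agonist and is the neighbour of Il1b on chromosome 2, read 31.9 with adenosine and 9.4 with IFN-gamma alone. Both signals were below the floor, so no fold is given. As deposited they were 11.3 and 9.4. With the floor at the 33rd percentile (8.74) Il1a is counted as measured, at a log2 ratio of 1.76.

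Il18, the gene of the other caspase-1 substrate, was at 196 with adenosine and 589 with IFN-gamma alone, 3.01-fold lower. Its log2 ratio of -1.59 was 3.06 times the probe set SD, and 2.95% of measured genes had a lower one. Il1b and Il18 thus differed in log2 ratio by at least 5.23, where the scatter of a difference between 2 ratios is 0.73.

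The antagonists did not follow Il1b. Il1rn had 3 probe sets, each lower with adenosine. They read 613, 581 and 63.1 with adenosine, against 981.5, 1012.1 and 165.2 with IFN-gamma alone, for log2 ratios of -0.68, -0.80 and -1.39. Their mean was -0.96 ± 0.38 (SD over 3 probe sets), and only the dimmest passed 2-fold. The probe sets at -0.80 and -1.39, 1451798_at and 1425663_at, share a source sequence. By its brightest probe set Il1rn was 1.60-fold lower, 1.31 times the probe set SD, and 18.3% of measured genes were lower still. Il1b exceeded it by at least 4.33 in log2 ratio (scatter of a difference, 0.73).

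Il18bp, the gene of the secreted IL-18 decoy, had 41.4 with adenosine, below the floor, and 104.3 with IFN-gamma alone. It was at least 2.37-fold lower, a log2 ratio of -1.25, and 6.22% of measured genes were lower. Il18 and Il18bp therefore lay on the same side, and their ratios, that of Il18bp taken at the floor, differed by -0.34, less than the scatter of 0.73.

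**Figure D2:**
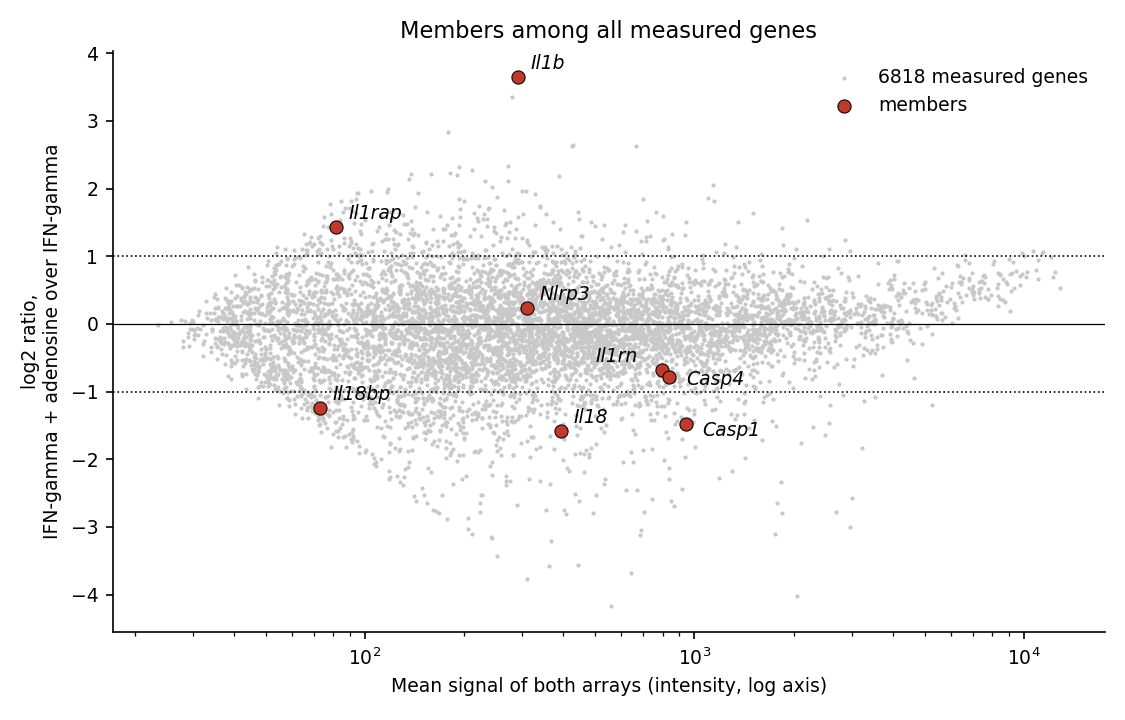
The log2 ratio of IFN-gamma with adenosine over IFN-gamma alone against the mean signal of both arrays (log axis), for 6818 measured genes (grey) and the 8 measured members (red); dotted lines mark 2-fold. Il1b has the highest ratio of all genes, while Il18 and Casp1 are in the lower fringe at their signal and Nlrp3 lies near 0.

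Il1rap encodes the accessory chain that IL-1 and IL-33 receptors share, and its probe sets disagreed. The brightest, 1449585_at, read 119 with adenosine and 44.0 with IFN-gamma alone, a signal equal to the floor. That is 2.70-fold higher, a log2 ratio of 1.43, and 1.54% of measured genes were higher. The others, 1421844_at and 1421843_at, which share a source sequence, read 21.1 and 12.1 with adenosine, against 42.2 and 32.6 with IFN-gamma alone. All 4 of these signals are below the floor, and they point the other way, with log2 ratios before flooring of -0.997 and -1.43. Over the 3 probe sets, unfloored, the mean log2 ratio was -0.33 ± 1.54 (SD). As deposited, the brightest was at 42.2 with adenosine and 44.0 with IFN-gamma alone, and with the mean of floored probe sets the log2 ratio was 0.48. No direction for Il1rap holds across its probe sets.

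Of the inflammasome proteases, Casp1, whose product cuts the IL-1 beta and IL-18 precursors, was at 499 with adenosine and 1386.5 with IFN-gamma alone. It was 2.78-fold lower, a log2 ratio of -1.47, or 2.84 times the probe set SD, and 3.68% of measured genes were lower. Casp4 is the mouse gene of caspase-11, which senses cytosolic lipopolysaccharide. It read 616 with adenosine and 1061.5 with IFN-gamma alone, 1.72-fold lower (log2 ratio -0.79, 1.52 times the SD), with 14.8% of genes lower. These neighbours differed by -0.69 in log2 ratio, close to the scatter of 0.73, which pools all signals. The probe set SD was 0.41 at the signal of Casp1 and 0.53 at that of Casp4. Whether the gap exceeds the scatter therefore depends on the SD used. Casp1 and Il18 differed by -0.11 (Il18 minus Casp1). The 200 genes nearest in signal were taken only from genes above the floor on both arrays. Among them, the median log2 ratio was -0.13 around Casp1 and -0.05 around Casp4, and 2.5% and 12% of those genes lay lower. The third caspase gene of the cluster, Casp12, had signals under the floor, 5.36 with adenosine and 6.6 with IFN-gamma alone.

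Nlrp3, the sensor gene, lay near the array median. It was at 335 with adenosine and 284.5 with IFN-gamma alone, a log2 ratio of 0.24, which is 0.46 times the probe set SD. Its deposited signals were 118.9 and 284.5, so its sign turns with the scaling: the log2 ratio was -1.26 as deposited and -0.73 with the spiked-in controls held equal. Relative to Nlrp3, Casp1 was lower by 1.71 and Il1b higher by at least 3.41 in log2 ratio, and these gaps do not depend on a common scaling factor except through the floor.

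Pycard, the gene of the adaptor ASC, was not measured by either of its probe sets. They read 7.89 and 8.74 with adenosine, against 4.1 and 2.1 with IFN-gamma alone. RAW 264.7 cells are known from other work to lack ASC. Signals this low give no fold, and they do not show that the transcript is absent.

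**Figure D3:**
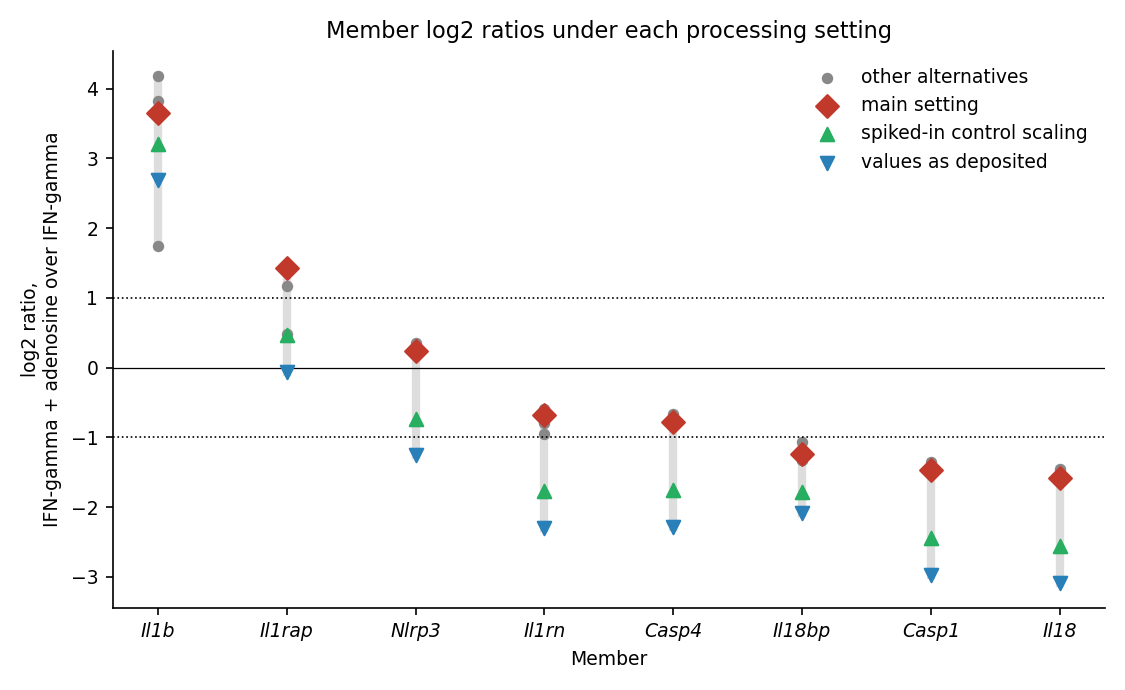
The log2 ratio of each measured member under the main setting (red diamond), with values as deposited (blue), with spiked-in control scaling (green) and under the other alternatives (grey), dotted lines marking 2-fold. Il1b stays above 1 and Il18, Casp1 and Il18bp stay below -1 wherever they were measured, while Nlrp3 crosses 0 and Il1rap reaches -0.06 as deposited.

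The genes that act before and after these members were read from a pair of lists. The first list was of receptors, other ligands and signalling genes of the IL-1 and IL-18 pathways. It held 30 names after second names that could be resolved were merged. Some may still be second names of a gene also listed. On the array with 1 symbol were 23 genes, and 11 were measured. Their median log2 ratio was -0.01, near the -0.08 of all genes, with 1 at least 2-fold higher (4.52% of all genes) and none lower (10.1% of all genes). Signals of the ligand-binding receptor genes were close to 0. Il1r1 read 1.41 with adenosine and 0.9 with IFN-gamma alone, and the decoy receptor gene Il1r2 8.74 and 2.7. Il18rap, a subunit of the IL-18 receptor, was at 129 with adenosine and 213.8 with IFN-gamma alone (log2 ratio -0.72). Of the proximal signalling genes, the adaptor Myd88 had a log2 ratio of -0.39 and the kinase Irak1 one of -0.01, with -0.67 by the next brightest of its 3 other measured probe sets.

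The gene past 2-fold was Traf6, a ubiquitin ligase that links IRAK kinases to NF-kB. It was at 324 with adenosine and 103.6 with IFN-gamma alone, 3.13-fold higher. However, the next brightest of its 2 other measured probe sets gave -0.40. Tollip, an inhibitor of IRAK signalling, had a log2 ratio of 0.66, and 1.13 by its other probe set. Map3k8, the kinase TPL2, was just short of 2-fold lower (47.4 with adenosine and 93.5 with IFN-gamma alone, log2 ratio -0.98), and Tab1, a partner of the kinase TAK1, at least 1.58-fold lower.

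Of the other inflammasome sensors, effectors and regulators, 25 of 39 were on the array with 1 symbol and 18 were measured, with a median log2 ratio of -0.26. At least 2-fold lower were 4 of them (10.1% of all genes) and none was 2-fold higher. Ifi204, a DNA sensor of the interferon-inducible p200 family, was at 89.1 with adenosine and 445.6 with IFN-gamma alone, 5.00-fold lower. Genes of that family resemble each other, so its probe set may read relatives too. Trim30a, reported in mouse as a brake on NLRP3, was at 286 with adenosine and 1394.4 with IFN-gamma alone, 4.88-fold lower, and its other probe set gave -1.68. Naip2, which detects bacterial secretion system proteins, was 2.18-fold lower, with 53.0 with adenosine and 115.3 with IFN-gamma alone. The pore-forming gasdermin gene Gsdme was 2.19-fold lower (447 with adenosine and 978 with IFN-gamma alone).

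The DNA sensor gene Aim2 was at 32.98 with adenosine, below the floor, and 80.7 with IFN-gamma alone, at least 1.83-fold lower. Ctsb, the lysosomal protease cathepsin B, had the highest ratio of this list, 1.95-fold higher (log2 ratio 0.96, and 0.78 by the next brightest of 3 other measured probe sets), and its deposited log2 ratio was -0.53. Casp8 (0.36) and Txnip (-0.23, other probe set 0.40) lay near the median, the ATP receptor gene P2rx7 was below the floor, at 24.8 with adenosine and 28.0 with IFN-gamma alone, and Gsdmd, Nlrc4, Nlrc5, Irak2, Irak3 and Irak4 were not analysed here.

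**Figure D4:**
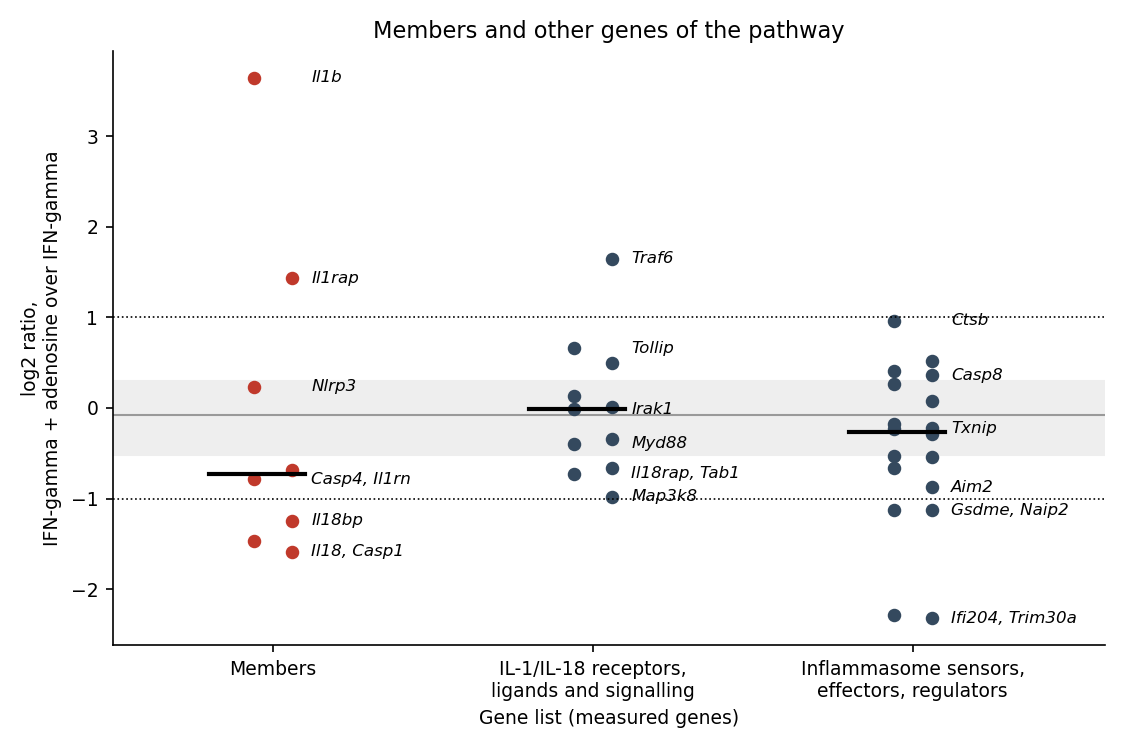
The log2 ratio of the 8 measured members (red) and of the 11 and 18 measured genes of the 2 related lists (dark), with a black bar at each median; the grey band spans the quartiles of all measured genes (-0.52 to 0.30), the grey line their median, and dotted lines mark 2-fold. Il1b lies above every gene of both lists, and Ifi204 and Trim30a lie below every member.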

How the data were processed

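RNA of RAW 264.7 cells was hybridized to 2 arrays, 1 per treatment. The authors deposited 1 linear intensity per probe set and array. The submitters' processing notes name the Affymetrix software GCOS. Neither its signal algorithm nor its scaling target is given in the sources used here.

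Of 22690 probe sets, 64 are controls, 20380 carry 1 symbol in the platform annotation, 691 several and 1555 none in the table used. Symbols were updated through Entrez identifiers. The log2 ratio was centred on its median over gene probe sets above the 50th percentile of the deposited values on both arrays. The floor is the 50th percentile of the scaled signals. Each gene takes the value of its brightest probe set (mean of both arrays) and is called by size, at 2-fold or more. Pairs of gene lists and 7 motifs served as context, and 1 further motif is not reported here. Members, lists and settings were chosen with earlier results of these data known. Named are all members, the 5 largest absolute log2 ratios of each list and 15 genes chosen by name, and Casp12 as a neighbour, which was added after its values were seen. The ratio and counts were also run on simulated arrays built with a common shift. This checks the computation only, because the shift is set in advance. It cannot show which scaling is right or how much cultures vary. Alternatives were other scalings, floors, a pseudocount of 16, other summaries of probe sets and other thresholds. Python 3.11.15, numpy 2.4.6, pandas 2.3.3 and statsmodels 0.14.6 (loess) were used. The number of arrays limits the precision.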

Additional observations from a re-analysis of the deposited data

How the results depend on the processing

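No paired analysis was possible because there is only 1 array per treatment, which also leaves no replicate to omit. The floor, not a measured detection limit, sets how large the fold of Il1b and Il18bp can be, and scaling sets the split of the counts. Il18 and Casp1 stayed at least 2-fold lower under all 11 alternatives that give a ratio, Il18bp under the 9 that measured it, and Il1b at least 2-fold higher under the 10 that measured it; without shared probe sets Il1b and Il18bp have no value. Casp4 and Il1rn were below 0 under all 11 and passed 2-fold under 2, the values as deposited and spiked-in scaling. Il1b ranged from 1.74 (67th percentile floor) to 4.18 (33rd). Il1rap turned to -0.060 as deposited. Nlrp3 turned to -1.26 as deposited and -0.73 with spiked-in scaling.

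Members at least 2-fold higher and lower numbered 2 and 3 with the main setting, 1 and 6 as deposited, 1 and 5 with spiked-in scaling, 1 and 2 both with the 67th percentile floor and without shared probe sets, 1 and 3 with the mean of all probe sets, and 3 and 3 with the 33rd percentile floor, which adds Il1a. At 1.5-fold they were 2 and 5, at 3-fold 1 and 1. The member median became -2.19 as deposited and -1.76 with spiked-in scaling.

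In the receptor and signalling list, 1 higher and 0 lower became 0 and 9 as deposited, 0 and 6 with spiked-in scaling, 2 and 1 with the 33rd percentile floor and 2 and 3 at 1.5-fold. No gene was higher with the 67th percentile floor or the mean of all probe sets, and 1 was lower with loess scaling and with the pseudocount. Its median became -1.51 as deposited and -1.20 with spiked-in scaling. In the inflammasome list, 4 lower genes became 16 as deposited, 12 with spiked-in scaling, 2 without shared probe sets and 2 at 3-fold. Its 0 higher genes became 1 with trimmed mean scaling, at 1.5-fold and with repeated centring. The medians were -1.68 as deposited and -1.17 with spiked-in scaling.

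Over all 6818 measured genes, 308 were higher and 691 lower, so 69.2% of the genes past 2-fold were lower. The counts became 10 and 5605 of 7117 as deposited (99.8% of those past 2-fold lower). They were 33 and 3538 of 6975 with spiked-in scaling (99.1%) and 399 and 568 of 6829 with quantile scaling (58.7%). The 33rd percentile floor gave 599 and 944 of 9177, and the 67th 133 and 328 of 5062. Without shared probe sets there were 259 and 545 of 5393, and with the mean of all probe sets 227 and 488 of 6822. At 1.5-fold there were 879 and 1489, at 3-fold 67 and 202. The median over all genes was -1.504 as deposited and -1.01 with spiked-in scaling. Centring repeated until the floor of the scaled values settled (45.0, shift -1.54), chosen after seeing the data, left 2 members higher and 3 lower. Over all genes it gave 345 higher and 638 lower of 6817.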
